A study of Mus musculus with 5 samples.

Results

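The genes described here are the 10 that make up the core of the interleukin-1 system and of the Nlrp3 inflammasome: Il1a, Il1b, Il1rn, Il1r1, Il1r2, Il1rap, Il18, Nlrp3, Casp1 and Pycard. They were taken by symbol from 22180 genes with a probe of a single gene symbol, and where a symbol had several probes (Il1rap, with 3) the probe with the highest mean over the arrays was used. All 10 were found. Hearts of wildtype C57Bl6J mice were collected at zeitgeber time 12 (12 h after lights on), with 1 array for each heart. In both groups the heart was removed and perfused on a Langendorff apparatus, stabilised for 20 min, held without flow for 20 min and reperfused for 20 min before freezing. The antagonist group (n = 3) had received an antagonist of REV-ERB alpha into the peritoneal cavity, at 10 µM as the labels write it, 4 h and 1 h before that protocol. The sham group (n = 2) did not receive it. The labels give neither the compound's name nor a vehicle injection, and neither the sex nor the age of the mice. Non-ischemic hearts were not analysed here.

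Interleukin-1 alpha and interleukin-1 beta are cytokines that start inflammation through the same receptor, which is built from the chains encoded by Il1r1 and Il1rap. The secreted antagonist encoded by Il1rn occupies this receptor without signalling, and the product of Il1r2 is a decoy that binds the cytokine. Interleukin-1 beta and interleukin-18 are made as inactive precursors: the sensor NLRP3, the adaptor ASC (Pycard) and caspase-1 (Casp1) assemble into an inflammasome that cuts both precursors and opens pores in the cell membrane. In the heart this pathway is known from tissue injury after ischemia, in resident and invading macrophages and in fibroblasts. REV-ERB alpha, encoded by Nr1d1, is a repressor of the circadian clock, and in mouse macrophages it is known to hold down Nlrp3 and Il1b.

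The arrays gave log2 values made by RMA, with array medians from 3.92 to 3.95 and pairwise Pearson correlations across probes from 0.986 to 0.990. Many values are exactly equal between arrays: 26.1% of the 15294 tested genes had 5 different values over the 5 arrays. Antagonist replicate 2 stood apart by high atrial, fat and mesothelial genes, described below beside the results, and the differences of the 10 genes are also given without it. The tissue was measured in bulk, so a larger number of cells of a type and more RNA per cell cannot be told apart.

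Il1b and Nlrp3 had the largest differences between the groups, with the antagonist hearts 1.67-fold and 1.46-fold above sham, and neither difference passed the test. Of the 10 genes, 8 had a higher mean with the antagonist and 2 a lower mean, beside 47.7% and 46.3% of all tested genes. The median log2 difference over the 10 was 0.17, and 0.08 without antagonist replicate 2, beside 0 over all tested genes in both cases. Il18 lay below the level filter of 3.42 (the 40th percentile of all probes), so 9 of the 10 were tested. With limma, 0 of these 9 reached an adjusted p under 0.05, as did 0% of the 15294 genes tested. At an unadjusted p under 0.05 there were also 0 of the 9, beside 4.60% of all tested genes. The smallest limma adjusted p among the 9 was 0.64, and the smallest over all genes was 0.60. For 3 of the 9 tested genes (33.3%) the 3 antagonist arrays all lay above both sham arrays, namely Il1b, Il1rn and Nlrp3. The same held for 6.19% of all tested genes, and for 15.1% of the 3991 tested genes with 5 different values. A log2 difference of at least 0.5 was found for 2 of the 9, beside 0.713% of all tested genes. The genes were chosen with earlier results of these arrays known, so these shares describe them and test nothing.

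**Figure D1:**
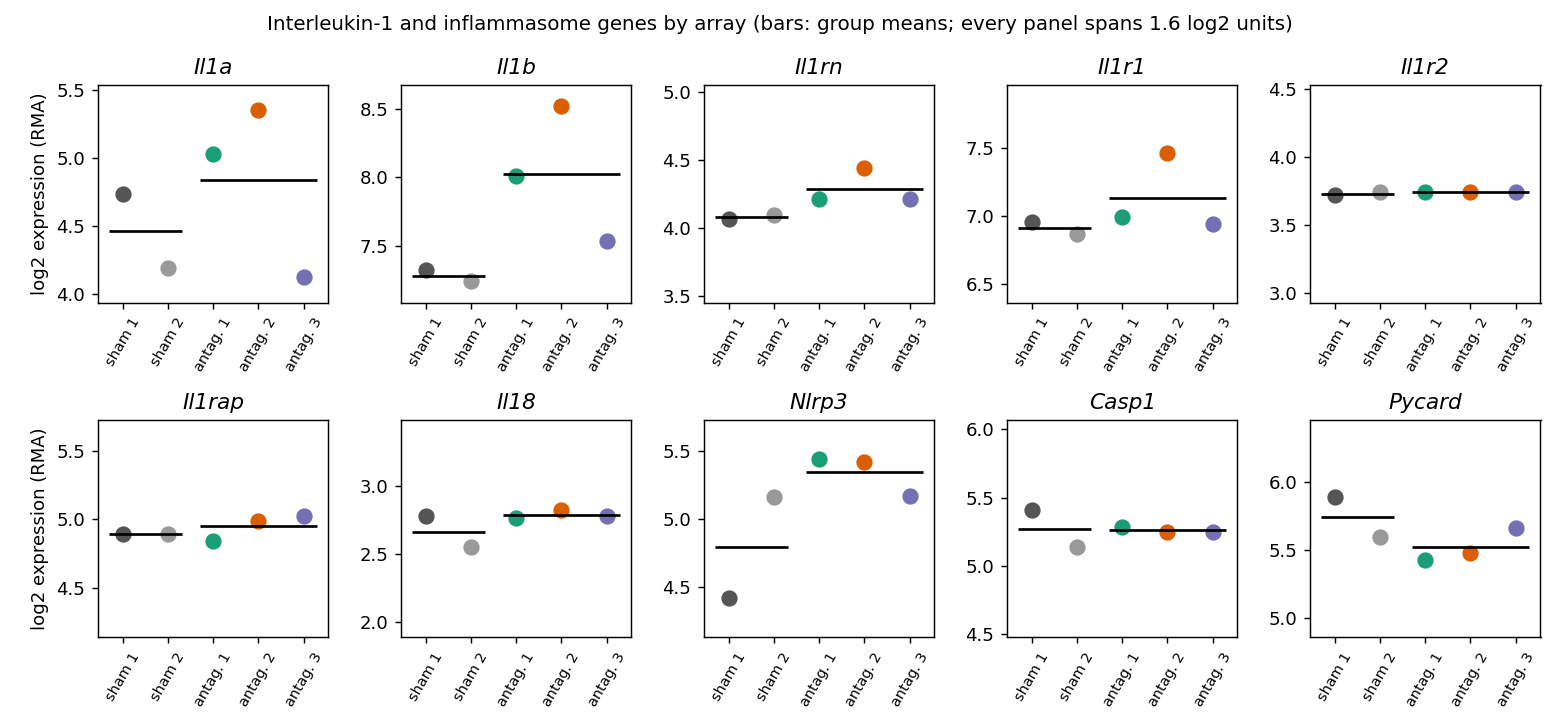
Log2 expression of the 10 genes on each of the 5 arrays (points, coloured by array), with a bar at each group mean. Every panel spans the same number of log2 units. Il1b, Il1rn and Nlrp3 have no antagonist point below a sham point; the lowest antagonist value of Nlrp3 (5.173) sits just above sham replicate 2 (5.166).

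Among the ligands, Il1b (Entrez Gene 16176) measured 7.32 and 7.24 in sham and 8.01, 8.52 and 7.53 on antagonist arrays 1, 2 and 3. The sham hearts were close to each other, and the antagonist hearts were spread over a wider range that began just above them. The means were 7.28 ± 0.06 (SD, n = 2) and 8.02 ± 0.50 (SD, n = 3), a log2 difference of 0.74 ± 0.33 (limma SE), with a limma adjusted p of 0.64. An exact two-sided permutation test gave p = 0.20; there are 10 ways to divide the arrays, so no p can be under 0.10. Without antagonist replicate 2 the difference was 0.49. Il1a (Entrez Gene 16175), the form that acts without inflammasome cleavage, measured 4.74 and 4.19 in sham and 5.03, 5.35 and 4.12 with the antagonist. These groups overlapped, since antagonist replicate 3 held the lowest value of all. Its difference of 0.37 ± 0.47 (SE) was 0.11 without antagonist replicate 2, 0.10 without sham replicate 2 and 0.73 without antagonist replicate 3. Il18 (Entrez Gene 16173) lay between 2.55 and 2.82 on all arrays, below the level filter on each. Its difference was 0.13 ± 0.08 (SE) in a fit without the filter, 0.11 without antagonist replicate 2 and 0.01 without sham replicate 2. Sham replicate 1 and antagonist replicate 3 had the same value, 2.78.

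Il1rn (Entrez Gene 16181), the receptor antagonist gene, measured 4.06 and 4.09 in sham and 4.21, 4.44 and 4.21 with the antagonist. As for Il1b, the groups did not overlap and antagonist replicate 2 was highest. The log2 difference was 0.21 ± 0.09 (SE), with a limma adjusted p of 0.64 and an exact permutation p of 0.10, the smallest this design allows. Antagonist arrays 1 and 3 had exactly the same value, so the SE need not measure the spread between hearts. Without antagonist replicate 2 the difference was 0.13.

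The inflammasome sensor gene Nlrp3 (Entrez Gene 216799) measured 4.42 and 5.17 in sham and 5.44, 5.42 and 5.17 with the antagonist. The gap between the groups was 0.0073, between sham replicate 2 and antagonist replicate 3, and the sham pair itself was wider apart than any antagonist array was from sham replicate 2. The means were 4.80 ± 0.52 (SD, n = 2) and 5.34 ± 0.15 (SD, n = 3), a difference of 0.55 ± 0.27 (SE), with a limma adjusted p of 0.64 and an exact permutation p of 0.10. The value rested on sham replicate 1: it was 0.18 without that array and 0.92 without sham replicate 2. Antagonist replicate 2 did not set it, since the difference without that array was 0.51. Pycard (Entrez Gene 66824), the adaptor gene, went the other way, with 5.89 and 5.59 in sham and 5.43, 5.48 and 5.66 with the antagonist. Its groups overlapped through antagonist replicate 3. The difference was -0.22 ± 0.13 (SE) with a limma adjusted p of 0.64, -0.07 without sham replicate 1 and -0.20 without antagonist replicate 2. Casp1 (Entrez Gene 12362) measured 5.41 and 5.14 in sham, and all 3 antagonist arrays, at 5.25 to 5.28, lay between these values. Its difference was -0.01 ± 0.09 (SE), and it was 0.12 without sham replicate 1 and -0.0069 without antagonist replicate 2. The components that form the inflammasome had differences of opposite sign, and sham replicate 1 held the lowest Nlrp3 and the highest Pycard and Casp1 values.

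Of the receptor genes, Il1r1 (Entrez Gene 16177), which encodes the signalling chain, measured 6.96 and 6.87 in sham and 6.996, 7.46 and 6.94 with the antagonist. Only antagonist replicate 2 stood clear of the sham hearts, and the groups overlapped. The difference of 0.22 ± 0.20 (SE) was 0.05 without that array. Il1rap (Entrez Gene 16180), the accessory chain, lay between 4.84 and 5.03 on all arrays, with a difference of 0.06 ± 0.07 (SE), or 0.04 without antagonist replicate 2. Its other 2 probes had means of 2.04 and 1.97, below the level filter, and differences of -0.08 and 0.08. Il1r2 (Entrez Gene 16178), the decoy, had 3.72 on sham replicate 1 and the same value, 3.74, on the other 4 arrays, so its difference of 0.01, with or without antagonist replicate 2, describes that single array. The exact permutation p of the 7 genes other than Il1b, Il1rn and Nlrp3 lay between 0.30 and 0.80.

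**Figure D2:**
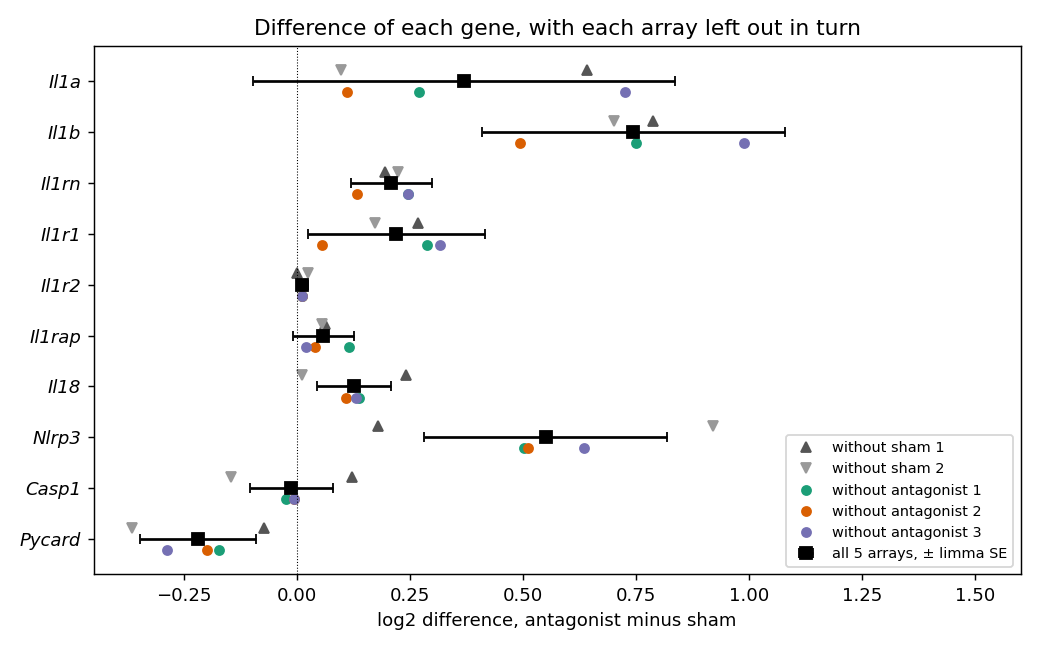
Log2 difference, antagonist minus sham, of each gene (black squares, with limma's moderated SE) and the same difference with each array left out in turn (coloured points). Nlrp3 moves most with the choice of sham array (0.18 to 0.92), while Il1b and Il1r1 are lowest without antagonist replicate 2 (0.49 and 0.05).

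The highest value lay on antagonist replicate 2 alone for 4 of the 9 tested genes (44.4%): Il1a, Il1b, Il1rn and Il1r1. Over all tested genes this share was 14.8%. On that array the mean log2 level of 5 atrial muscle markers (their summed level divided by their number) was 10.1, against 7.18 to 7.51 in sham and 7.38 and 7.84 on the other antagonist arrays, and it held the highest value of 4 of the 5. For the 5 tested of 7 adipocyte markers the sham range was 3.88 to 3.95 and the antagonist range 3.87 to 6.04, with 4 of the 5 highest on that array. For 6 mesothelial markers these ranges were 4.25 to 4.26 and 4.17 to 5.08, with 6 of the 6 highest there. Without that array the brightest atrial genes Nppa and Sln differed by -0.04 and -0.22, but Bmp10 still by 1.61 (3.42 and 4.81 in sham, 5.88 and 5.57 on antagonist replicates 1 and 3), Myl4 by 0.19 and Myl7 by -0.24, the fat genes Retn and Cidec by 0.20 and 0.12, and the mesothelial genes Wt1 and Upk3b by -0.10 and 0.08. Bmp10, Myl4 and Myl7 were named after their values were seen. The part of these lists in the values of the 4 genes was not tested; the difference of each without that array is given above.

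Markers of cells that make interleukin-1 were also compared. In the macrophage and monocyte list 11 of 12 markers were tested. Their mean log2 level was 6.74 to 6.76 in sham and 6.78 to 6.95 with the antagonist. Of the 11, 7 were higher and 4 lower, beside 47.7% and 46.3% of all tested genes. In limma 0 of them passed an adjusted p under 0.05. The median difference was 0.07, or 0.03 without antagonist replicate 2. The brightest of them, Lyz2 and C1qb, differed by 0.09 and 0.02. In 4 of the 11, named after their values were seen, all antagonist arrays lay above sham. The share was 6.19% over all tested genes and 15.1% over those with 5 different values. The 4 were Cd14 (0.67 ± 0.17, SE), C1qa (0.38 ± 0.18), Fcgr1 (0.34 ± 0.06) and Itgam (0.31 ± 0.06). Cd14, Fcgr1 and Itgam had an unadjusted limma p under 0.05, as 4.60% of all tested genes did, and an adjusted p of 0.64. Without antagonist replicate 2 these 3 differed by 0.54, 0.36 and 0.32, and without sham replicate 1 C1qa differed by 0.14. Cd68, also named after its values were seen, was lower on every antagonist array (-0.26 ± 0.17), beside 6.33% of all tested genes. Antagonist replicates 1 and 2, the arrays with the most Il1b, also had the highest means of this list. Whether the macrophage list has a part in the Il1b values was not tested. For neutrophils 4 of 10 markers were tested, with mean levels of 3.92 to 4.03 in sham and 3.95 to 4.04 with the antagonist. The defining neutrophil genes S100a8 (2.08 to 2.18), S100a9 (2.46 to 2.70) and Ly6g (2.27 to 2.56) lay below the level filter on every array. The brightest, Csf3r and Cxcr2, differed by 0.06 and 0. Csf3r had 4.16 on sham replicate 1 and the same value, 4.29, on every other array, so its difference describes that single array. Cxcr2 had the same value, 4.15, on every array. The 6 endothelial and 7 heart muscle markers had sham means of 8.53, and 11.4 to 11.5, and antagonist means of 8.46 to 8.49, and 11.5. Of their brightest, Cdh5 and Pecam1 differed by -0.23 and 0.05, and Tnnt2 and Actc1 by -0.01 and 0.02. Cdh5 (SE 0.05) was lower on every antagonist array than on either sham array, with a limma unadjusted p of 0.011 and adjusted p of 0.64. It was the 1 endothelial marker with groups apart in that direction, beside 6.33% of all tested genes. Tnni3 (-0.05 ± 0.02, limma adjusted p 0.64), named after its values were seen, was the 1 such heart muscle marker, beside the same share. The 6 fibroblast markers lay at 7.71 to 7.97 in sham and 7.64 to 7.78 with the antagonist. Of these 4 were lower and 1 higher, beside 46.3% and 47.7% of all tested genes. The brightest, Dcn, differed by -0.01, and Pdgfra had the same value on every array. Lum (-0.39 ± 0.15) and Tcf21 (-0.12 ± 0.04) were named after their values were seen. Both were lower on every antagonist array than on either sham array (limma adjusted p 0.64 for both), beside 6.33% of all tested genes. Tcf21 had the same value, 5.67, on all antagonist arrays and 5.73 and 5.84 in sham. Its SE therefore need not measure the spread between hearts. Only 2 of 6 mast cell markers, Kit and Cpa3 (5.05 to 5.25 in sham and 4.90 to 5.22 with the antagonist) and 2 of 8 lymphocyte markers, Cd4 and Ncr1 (3.91 to 4.18 and 3.96 to 4.002) passed the level filter; their differences lay between -0.12 and -0.01.

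**Figure D3:**
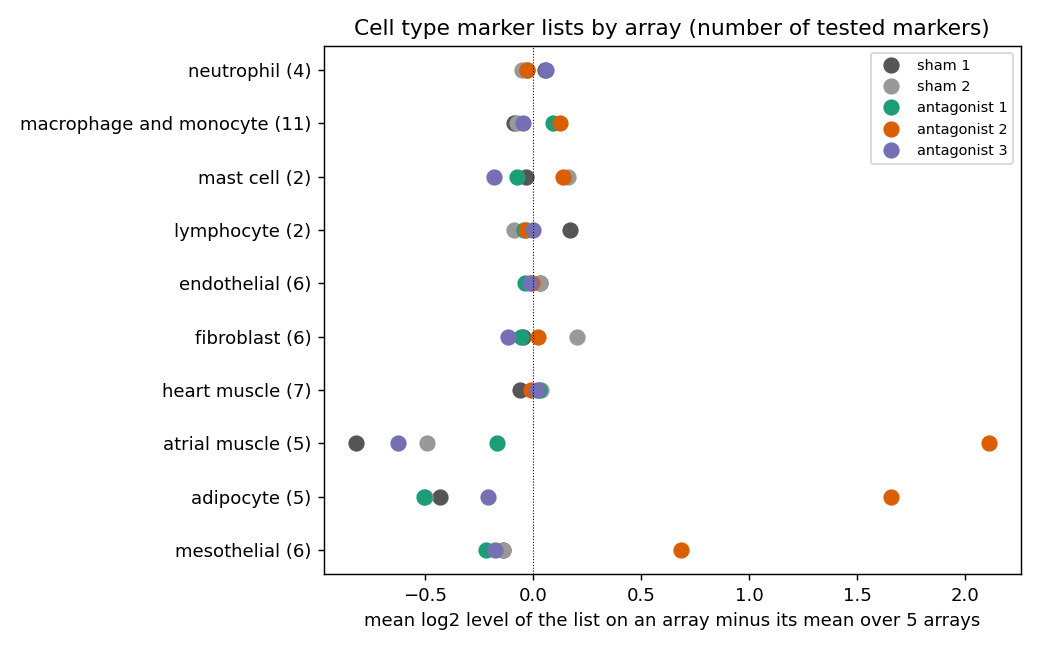
Mean log2 level of each cell type marker list on each array, minus its mean over the 5 arrays, with the number of tested markers in brackets. Antagonist replicate 2 lies far above the others for atrial, adipocyte and mesothelial markers, and antagonist replicates 1 and 2 lie slightly above the others for macrophage and monocyte markers.

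The upstream bases of Il1b, Il1rn and Nlrp3 are shown because these are the genes whose groups did not overlap, and because REV-ERB alpha acts by binding DNA at AGGTCA preceded by A and T bases. Each is the 250 bases before the gene's most upstream start in RefSeq (GRCm38.p6), 5′ to 3′ on the gene's strand: Il1b at chr2:129371140-129371389 (minus strand), Il1rn at chr2:24336610-24336859 (plus strand) and Nlrp3 at chr11:59541319-59541568 (plus strand). Capitals mark matches, on either strand, to the core motif AGGTCA, the NF-kB motif kappaB, the AP-1 motif TGANTCA, the TATA box TATAAA and the E-box CACGTG.
Il1b: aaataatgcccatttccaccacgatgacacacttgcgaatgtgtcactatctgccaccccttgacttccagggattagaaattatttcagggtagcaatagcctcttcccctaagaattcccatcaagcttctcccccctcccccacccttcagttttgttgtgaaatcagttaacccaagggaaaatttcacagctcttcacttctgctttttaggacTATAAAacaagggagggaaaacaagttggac
Il1rn: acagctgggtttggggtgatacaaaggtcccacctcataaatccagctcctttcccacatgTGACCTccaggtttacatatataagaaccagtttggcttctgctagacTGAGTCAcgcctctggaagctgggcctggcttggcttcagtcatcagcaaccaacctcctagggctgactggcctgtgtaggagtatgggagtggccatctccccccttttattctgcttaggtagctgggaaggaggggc
Nlrp3: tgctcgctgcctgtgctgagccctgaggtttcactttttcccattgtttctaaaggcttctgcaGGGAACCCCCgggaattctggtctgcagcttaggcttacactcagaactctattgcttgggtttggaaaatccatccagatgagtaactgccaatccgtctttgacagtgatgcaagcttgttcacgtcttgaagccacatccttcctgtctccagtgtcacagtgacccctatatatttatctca
The Il1b stretch held 1 match, a TATAAA beginning 31 bases before the start. In Il1rn there was an AGGTCA on the opposite strand (read as TGACCT), from 189 bases before the start. Of the 5 bases before it on that strand 1 is A or T, so it lacks the flank named above. The same stretch held a TGANTCA from 141 bases before the start. The Nlrp3 stretch held a kappaB match from 186 bases before the start. No marked matches overlapped one another.

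All 10 genes had at least 1 start in the RefSeq table, 14 starts in all. AGGTCA was found before 1 of the 14 and before 14% of 32841 mouse starts in windows of the same length. The kappaB motif was found before 2 of the 14 (the other before Il1r1) and 7.25% of all starts, and TGANTCA before 2 (the other before Il1a) and 6.75%. TATAAA was found before 3 (Il1a, Il1b and Il18) and 12.4%, and CACGTG before 2 (Il1r2 and Casp1) and 6.02%. These are matches of letters in a short window and do not show whether a factor binds there.

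The wider pathway was described with 5 lists, none of which had a member past the adjusted threshold in either direction in limma (48 tested genes, smallest adjusted p 0.64). Genes that interleukin-1 is known to induce had a median log2 difference of 0.36 over 15 tested of 16, beside a median of 0 over all tested genes. Of the 15, 14 were higher and 1 lower, beside 47.7% and 46.3% of all tested genes. On antagonist replicate 2 alone 13 of the 15 were highest, beside 14.8% of all tested genes, and without that array the median was 0.11. The 3 of smallest unadjusted p were Saa3, Lcn2 and Ccl20. Saa3, an acute phase protein, differed by 0.27 ± 0.11 (SE, or 0.43 without sham replicate 1). It measured 3.49 and 3.17 in sham and 3.58, 3.62 and 3.60 with the antagonist, so the difference rested largely on sham replicate 2. That sham value lay below the level filter of 3.42, and the mean of Saa3 over the arrays was 3.49. Lcn2, which binds iron carriers of bacteria, differed by 0.49 ± 0.26 (0.86 without sham replicate 1). It measured 5.98 and 5.23 in sham and 6.15, 5.98 and 6.15 with the antagonist, so it also rested largely on sham replicate 2. Ccl20, a chemokine of lymphocytes and dendritic cells, was the 1 lower gene (-0.29 ± 0.16, or -0.09 without sham replicate 1). Cxcl2, a neutrophil chemokine named after its values were seen (0.87 ± 0.50, or 0.50 without antagonist replicate 2), measured 5.86 and 6.11 in sham and 6.85, 7.60 and 6.14 with the antagonist, with the antagonist arrays in the same order as for Il1b. The groups did not overlap, with the antagonist higher, for 4 of the 15, beside 6.19% of all tested genes and 15.1% of those with 5 different values. These were Saa3, Cxcl2 and, named after their values were seen, Nfkbia (0.78 ± 0.47) and Icam1 (1.47 ± 0.97). Without antagonist replicate 2 the last 2 differed by 0.39 and 0.68. Icam1, an adhesion molecule of endothelium, was at 9.50 on antagonist replicate 2 and at most 7.43 elsewhere.

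In the list of interleukin-1 receptor signalling 15 of 18 genes were tested, and the median difference was 0.03. A higher mean was found for 8 and a lower mean for 7, beside 47.7% and 46.3% of all tested genes. Irak3, which encodes a brake on the receptor's kinases, measured 6.41 and 6.47 in sham and 6.85, 7.20 and 6.86 with the antagonist. All antagonist hearts lay clear of both sham hearts, by more than the sham pair differed. The difference was 0.53 ± 0.14 (SE; limma unadjusted p = 0.020, adjusted p = 0.64), and 0.42 without antagonist replicate 2. The adaptor gene Myd88 differed by 0.31 ± 0.14 (0.26 without antagonist replicate 2) and the kinase gene Irak2 by 0.45 ± 0.20 (0.27 without that array), also without overlap. The groups of Traf6, named after its values were seen, did not overlap either (0.16 ± 0.09, or 0.08 without sham replicate 1). That makes 4 of the 15, beside 6.19% of all tested genes and 15.1% of those with 5 different values.

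The list of inflammasome sensors, caspases and pore proteins had 12 of 18 genes tested, with a median difference of 0.07. Of the 12, 9 were higher and 3 lower, beside 47.7% and 46.3% of all tested genes. P2rx7, the ATP-gated channel upstream of NLRP3, measured 6.02 and 6.14 in sham and 5.78, 5.78 and 5.55 with the antagonist. Every antagonist heart lay below both sham hearts, with a difference of -0.37 ± 0.10 (SE; limma unadjusted p = 0.023, adjusted p = 0.64) that was -0.41 without antagonist replicate 2. It was the 1 gene of the 12 with groups apart in that direction, beside 6.33% of all tested genes. Txnip, which binds thioredoxin and NLRP3, differed by 0.18 ± 0.06 and Ninj1, which ruptures the membrane of dying cells, by 0.21 ± 0.08, both without overlap. Without antagonist replicate 2 they differed by 0.20 and 0.17, and without sham replicate 1 Ninj1 differed by 0.13. Casp4, the mouse caspase that senses lipopolysaccharide in the cytosol, was named after its values were seen. Its antagonist values were also all above sham (0.57 ± 0.45), and it was highest on antagonist replicate 2 (0.19 without that array). That makes 3 of the 12 with the antagonist higher throughout, beside 6.19% of all tested genes and 15.1% of those with 5 different values.

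Of the other ligands and decoys of the family 4 of 7 were tested, with a median difference of 0.01, or -0.03 without antagonist replicate 2. Il18bp, the binding protein that neutralises interleukin-18, differed by 0.17 ± 0.10 (SE, or 0.31 without sham replicate 1). It measured 6.23 and 5.94 in sham and 6.30, 6.23 and 6.23 with the antagonist, so the difference rested on sham replicate 2. Il1f10 differed by -0.06 ± 0.05 (-0.13 without sham replicate 1). Its antagonist arrays all had the same value, 4.89, which lay between the sham values of 4.86 and 5.02. Il36a, listed in the annotation as Il1f6, differed by 0.05 ± 0.06. Il36a had the same value, 3.51, on every array but antagonist replicate 2 (3.66), so its difference describes that array and is 0 without it. Of the other receptors 2 of 7 were tested: Sigirr, an inhibitory receptor, differed by 0.22 ± 0.11, or 0.06 without sham replicate 1, and Il1rl2, the receptor of the interleukin-36 cytokines, by 0.01 ± 0.02.

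**Figure D4:**
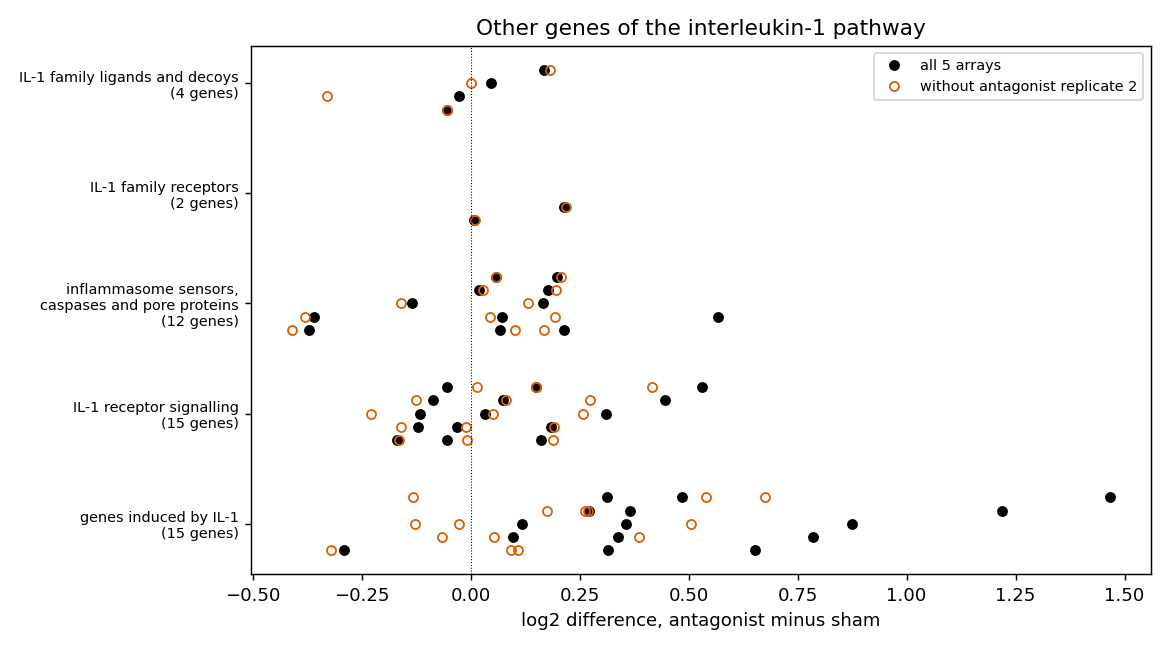
Log2 difference, antagonist minus sham, of every tested gene of the 5 pathway lists over all 5 arrays (filled points) and without antagonist replicate 2 (open points). The genes induced by interleukin-1 lie mostly right of 0 and move left without that array (median 0.36 and 0.11), while the signalling genes lie on both sides of 0 (median 0.03).

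The profile of Il1b over the 5 arrays was compared with those of the other 15293 tested genes, by the root mean square difference of log2 values centred on each gene's mean. The 5 nearest were Gadd45b, a gene induced by stress (0.12), Ccl7, a monocyte chemokine (0.14), Cd14, a co-receptor of lipopolysaccharide that is also in the macrophage list (0.16), Bcl3, of the family of IkB proteins (0.17), and the predicted gene Gm4951 (0.18). Gadd45b measured 7.92 and 8.07 in sham and 8.50, 9.17 and 8.30 with the antagonist. Cd14 measured 6.28 and 6.25 in sham and 6.92, 7.19 and 6.69 with the antagonist. In all 5 genes antagonist replicate 2 was highest and antagonist replicate 1 next. Bcl3 had the same value, 5.53, on sham replicate 2 and antagonist replicate 3. The log2 differences of the 5 genes lay between 0.54 (Ccl7) and 0.78 (Gm4951), each with a limma adjusted p of 0.64. These genes were picked for their likeness to Il1b, so the shared order and the positive differences follow from that choice. With 5 arrays many profiles can be alike, so the distances only describe these hearts.

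**Figure D5:**
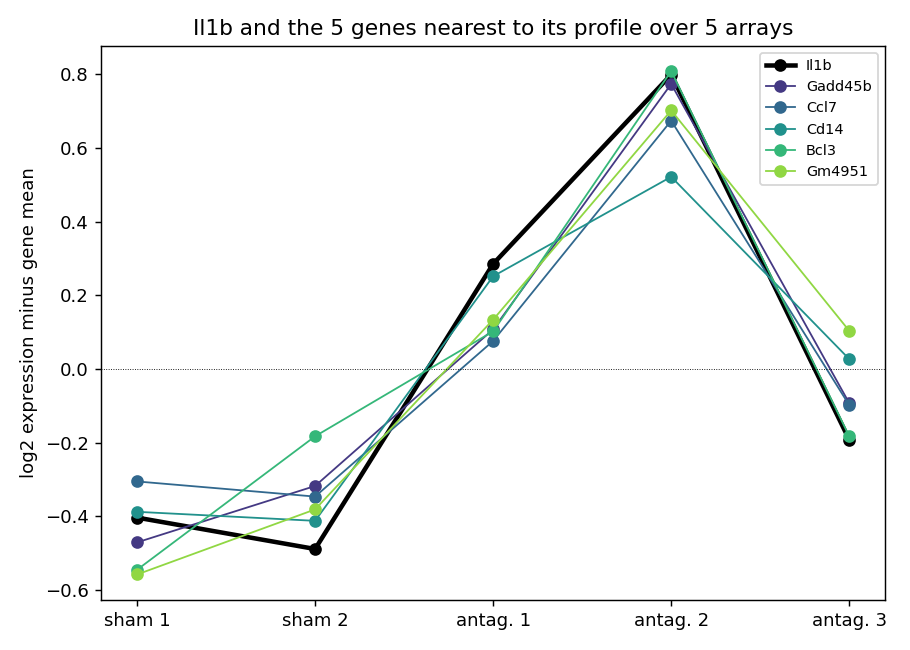
Log2 expression minus each gene's mean, on each array, for Il1b (black) and the 5 genes with the smallest root mean square difference from it. The 6 lines share sham values below 0 and a peak on antagonist replicate 2, and antagonist replicate 3 is below antagonist replicate 1 in each. For Bcl3 sham replicate 2 and antagonist replicate 3 are equal (-0.18). The genes were picked for this likeness.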

How the data were processed

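Total RNA of 5 hearts was hybridised to Affymetrix arrays; 300 ng of it was labelled with biotin, per the labels' protocols. The deposited values are log2 expression per probe, made with RMA per the submitters' processing notes; its version, probe library and build: not given in the sources used here. The table held 41345 probes, of which 23521 had 1 gene symbol in the platform annotation, 1814 several and 16010 were not listed. Symbols were checked against RefSeq (GRCm38.p6) by Entrez Gene identifier (23328 found, 0 changed). The brightest probe per symbol was kept, and the 15294 genes whose mean reached the 40th percentile over probes (3.42) were tested with limma 3.58.1 in R 4.3.3 (lmFit, eBayes, two-sided, no covariates, Benjamini-Hochberg over all tested genes, threshold 0.05). SE is limma's moderated standard error. Single genes were also tested by exact permutation. The scripts were tested on simulated data.

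The labels call the arrays biological replicates; their number limits the precision. The members and lists were chosen with earlier results of these data known. The text names all 10 members, the 3 genes of smallest unadjusted p of each pathway list (all where fewer were tested), the brightest markers and the 5 genes nearest to Il1b; others are marked as named after their values were seen. List genes without a probe of their own symbol were not analysed here.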

Additional observations from a re-analysis of the deposited data

How the results depend on the processing

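With limma, 0 genes, 0 members and 0 pathway genes passed with no level filter, with the 60th percentile filter, a second quantile normalization, median centring, the mean of a symbol's probes, eBayes with trend or robust, and array weights. The members tested numbered 10 with no filter, 7 with the stricter filter, 8 with probe means and 9 otherwise. With every probe tested on its own 0 probes passed. With the replicate number as a block 0 genes passed, and the median over the 10 members was 0.19. There was no sham replicate 3, so antagonist replicate 3 did not enter this difference, and the median was the same as without that array. The labels do not say that a number is shared between hearts, and deviations of arrays of the same number correlated at -0.11 and 0.03 across genes. Leaving out each array in turn gave 0 to 2058 genes past the threshold (1319 without sham replicate 1, 2058 without sham replicate 2), 0 members in each case, and 0 to 5 pathway genes. The latter were Il1f10, Nlrc3 and Saa3 without sham replicate 1, and Casp8, Nlrc3, Tab2, Ikbkg and Mapk14 without sham replicate 2. A lone sham array is then assumed to vary like the antagonist arrays, and for Il1f10, Nlrc3 and Mapk14 the antagonist values were all equal. Nlrc3 passed at 0.15 without sham replicate 1 and at -0.03 without sham replicate 2. The median over the 10 members lay between 0.076 and 0.19 with single arrays left out. Casp1 changed sign: with single arrays left out it lay between -0.15 and 0.12, the latter without sham replicate 1, and it was 0.13 for sham replicate 2 against antagonist replicates 1 and 3, a comparison chosen after seeing the data; the cause was not tested. The other 9 members did not change sign under any alternative, though Il1r2 reached 0. Detection calls were not used here, so a level near the filter cannot be set against background.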

Other observations

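The difference of Il1b was larger than that of its inhibitor Il1rn. Il1b exceeded Il1rn in its log2 difference between antagonist and sham by 0.54, with a range of 0.36 to 0.74 when single arrays were left out, and the 3 antagonist arrays all lay above both sham arrays in this measure. The exact two-sided permutation p was 0.20, and the pair was chosen after the values were seen. Il1b and Il1rn were measured at unlike levels (means of 7.72 and 4.20), and a part of level in this contrast was not tested. The same measure was 0.37 for Il1b against Il1a and 0.77 for Nlrp3 against Pycard. In both of these pairs the groups overlapped, with an exact two-sided permutation p of 0.30.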
